A study of Bos taurus with 9 samples.

Results

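The seed family of miR-25, miR-32, miR-92 and miR-363 was examined in extracellular vesicles (EVs) of bovine follicular fluid. The members were the loci that the paper's list of known and homologous miRNA names bta-miR-25, bta-miR-32, bta-miR-92a, bta-miR-92b or bta-miR-363, in any arm. This gave 5 of the 101889 deposited loci, and 5 of the 249 known and homologous miRNA loci. They were bta-miR-25, bta-miR-32, bta-miR-92b and a pair of bta-miR-92a loci, and miR-363 was not analysed here.

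A miRNA guides the silencing complex to messenger RNAs mainly through its seed, the bases near its 5′ end, and miRNAs that share a seed are expected to share many targets. This family shares 1 seed, and BIM, which promotes apoptosis, is a well-known target of its members. The miR-92a and miR-25 genes sit in polycistronic clusters of the miR-17 type, which are known for promoting proliferation, whereas miR-92b and miR-32 are transcribed outside these clusters. EVs of follicular fluid are vesicles shed into the antrum, and they can carry miRNA between granulosa cells, cumulus cells and the oocyte.

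Small RNA was sequenced from EVs of small (3–5 mm, n = 3), medium (6–9 mm, n = 3) and large (>9 mm, n = 3) antral follicles of cows, without any treatment. Each library held the EV RNA of 1 pool of fluid from many follicles at an abattoir, so a pool can mix healthy and atretic follicles and vesicles of every cell type that sheds into the fluid. A lower count in such a pool can mean fewer vesicles with the miRNA, fewer copies in each vesicle or more of other RNA in the library. These cannot be told apart from counts alone. The paper reports by particle tracking that the concentration of EVs in the fluid fell with follicle size. It also reports that the part of EV RNA with the size of miRNA was greatest for small and least for large follicles. Counts on all deposited loci summed to between 8941598 and 14664460 per library. The share of these counts on known and homologous miRNA was 14.1% to 26.9% for small follicles, 3.75% to 11.2% for medium follicles and 1.43% to 5.65% for large follicles, so levels are given here first relative to the known and homologous miRNA and then relative to all deposited counts. Unless another scale is named, a level is a normalized count, that is, a count divided by the summed count of the 249 loci, after scaling by the trimmed mean of M-values (TMM), and multiplied by 1000000 (CPM).

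The miR-92a loci span 66227302–66227324 of chromosome 12 (plus strand, UMD3.1) and 17917863–17917884 of chromosome X (minus strand). They are 23 and 22 bases long and held 321784 and 291632 counts over the 9 libraries. They carry the same miRNA name, so a read of the shared mature miRNA could have been assigned to either or to both, and neither count is certain on its own. The chromosome 12 count was 1.06 to 1.28 times the chromosome X count in each library. bta-miR-25 spans 36892500–36892521 of chromosome 25 (plus strand), is 22 bases long and held 282162 counts. bta-miR-92b spans 15480739–15480760 of chromosome 3 (minus strand), is 22 bases long and held 62244 counts. bta-miR-32, of 21 bases, spans 100305204–100305224 of chromosome 8 (minus strand) and held 3993 counts, with a lowest count of 19 in 1 large follicle library. By total count the members ranked 6, 8, 10, 38 and 127 among the 249 loci. In the RefSeq gene table of the newer assembly ARS-UCD2.0, MIR25 lies within MCM7, which encodes a subunit of the replicative helicase, and MIR32 within TMEM245. MIR92B has no containing gene there and has THBS3, MUC1 and TRIM46 as its near neighbours. Whether these positions are exonic or intronic was not analysed here.

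Relative to the other miRNAs, miR-92b rose from small to large follicles and miR-32 fell, whereas the abundant members miR-92a and miR-25 did not pass the test. Relative to all deposited counts, miR-92b did not pass and the others were called lower, as were 76.7% of the 249 loci. The normalized count of miR-92b was 1648, 1030 and 3120 in the small, 6091, 4559 and 9988 in the medium, and 11215, 15893 and 45417 in the large follicle libraries. Every medium library was above every small library and every large library above every medium library. Among the large follicle libraries, replicate 12 stood highest.

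miR-32 was the least abundant member. Its normalized count was 618, 439 and 336 in small, 204, 298 and 145 in medium, and 106, 185 and 150 in large follicle libraries. The small libraries lay above all others, while medium and large libraries overlapped.

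miR-92a is known for restraining angiogenesis. The normalized count of its chromosome 12 locus was 24892, 22784 and 37302 in small, 21462, 22551 and 36797 in medium, and 29145, 43046 and 61917 in large follicle libraries. That of the chromosome X locus was 23050, 19882 and 35295 in small, 18569, 18804 and 32220 in medium, and 22770, 33747 and 54605 in large follicle libraries. At both loci the 3 sizes overlapped. For miR-25, the normalized count was 28715, 15270 and 37617 in small, 16843, 11794 and 27825 in medium, and 14221, 16745 and 26836 in large follicle libraries, and the sizes again overlapped.

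**Figure D1:**
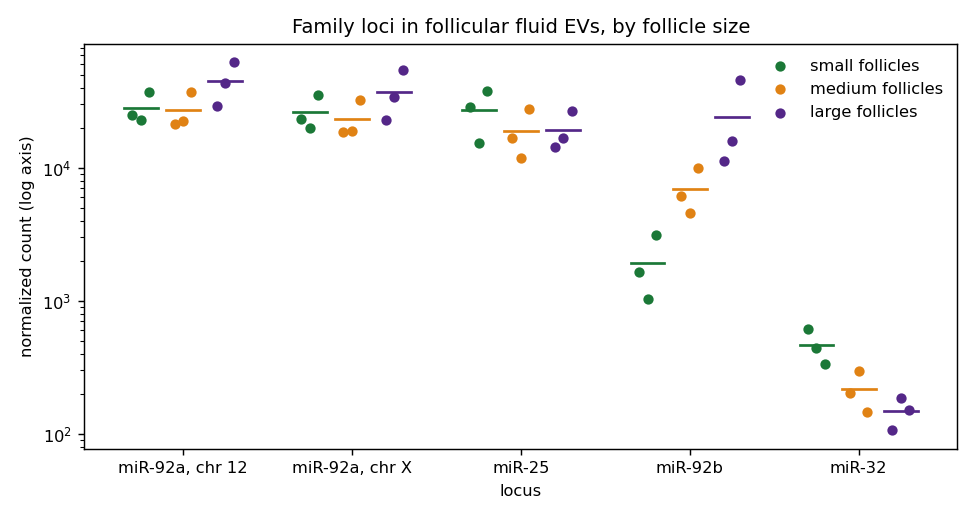
Normalized count (log axis) of the 5 family loci in each of the 9 libraries. Points are libraries in small, medium and large follicles, and bars are means of 3 libraries. The miR-92b points climb from 1030 in a small to 45417 in a large follicle library without overlap between sizes on this scale, whereas those of miR-92a and miR-25 overlap.

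The mean level per base of the locus gave a different order of the members in each size. In small follicle EVs, miR-25 and the chromosome 12 and chromosome X loci of miR-92a had 1236 ± 511, 1232 ± 341 and 1185 ± 370 normalized counts per base (SD, n = 3), and these did not differ beyond their spread. miR-92b followed with 87.8 ± 48.8 and miR-32 with 22.1 ± 6.78 normalized counts per base (SD, n = 3), each below the lowest library of the member before it. In large follicle EVs, the chromosome 12 and chromosome X loci of miR-92a had 1944 ± 715 and 1684 ± 735, miR-92b 1099 ± 843 and miR-25 876 ± 303 normalized counts per base (SD, n = 3). Neighbours among these 4 loci overlapped in their spread. miR-32 had 7.0 ± 1.88 normalized counts per base (SD, n = 3) and stood apart below them. Each miR-92a locus is ranked alone here. Where reads were divided between these loci, the level of miR-92a as a whole would be higher, so its place beside miR-25 is uncertain.

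In large versus small follicles, miR-92b had a log2 fold change of 3.65, a 12.5-fold higher level (standard error, SE, 0.62, edgeR's quasi-likelihood test, Benjamini-Hochberg false discovery rate, FDR = 0.00114), which was the third highest log2 fold change among the 249 loci. Its fold change was smaller without large replicate 12 (log2 fold change 2.81, FDR = 0.00151) and larger without small replicate 4 (log2 fold change 4.28, FDR = 0.00211). miR-32 had a log2 fold change of -1.66 (SE 0.41, quasi-likelihood FDR = 0.00805), and with each library left out in turn this FDR was at most 0.0418. The log2 fold changes were 0.66 for the chromosome 12 locus (SE 0.38, quasi-likelihood FDR = 0.182) and 0.51 for the chromosome X locus of miR-92a (SE 0.41, quasi-likelihood FDR = 0.332). For miR-25 the value was -0.50 (SE 0.44, quasi-likelihood FDR = 0.37). Thus 1 of the 5 loci rose, 1 fell and 3 did not pass, where the test called 42.2% of all 249 loci, 17.7% higher and 24.5% lower. The median log2 fold change was 0.51 over the family and -0.18 over all 249 loci. Normalized counts did not overlap between large and small follicles at 2 of the 5 loci, against 53.0% of the 249 loci.

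Between neighbouring sizes, no family locus passed the quasi-likelihood test. The paper, which used edgeR's exact methods, lists miR-92b among miRNAs with a significant progressive increase over the sizes. In medium versus small follicles, miR-92b had a log2 fold change of 1.83 (SE 0.57, quasi-likelihood FDR = 0.109) and miR-32 of -1.11 (SE 0.39, quasi-likelihood FDR = 0.141), both with an unadjusted p under 0.05. Their normalized counts did not overlap between these sizes, as was the case at 28.5% of the 249 loci. This was a comparison in which the quasi-likelihood test called 0 of the 249 loci, although 17.7% of them had an unadjusted p under 0.05. edgeR's exact test and DESeq2 called 16 and 28 loci there. miR-92b was among these, with an FDR of 0.0333 in the exact test and of 0.00944 in DESeq2, and over all alternatives its FDR ranged from 0.00944 to 0.993.

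In large versus medium follicles, where the quasi-likelihood test called 10.4% of the 249 loci, miR-92b had a log2 fold change of 1.81 (SE 0.57, FDR = 0.0555), and its normalized counts did not overlap, as at 36.1% of the loci. edgeR's exact test gave it an FDR of 0.019 and DESeq2 an FDR of 0.0124, within a range of 0.0124 to 1 over all alternatives. The corresponding log2 fold changes were -0.55 for miR-32 (FDR = 0.374), 0.73 and 0.68 for the chromosome 12 and chromosome X loci of miR-92a (FDR = 0.2 and 0.271) and 0.03 for miR-25 (FDR = 0.987).

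Members were next compared with each other. A ratio of a pair of loci within a library does not depend on how libraries are scaled, and it was used for this. For every 100 counts of miR-92a, taken as the mean of its 2 loci, miR-92b had 6.87, 4.83 and 8.59 counts in small, 30.4, 22 and 28.9 in medium, and 43.2, 41.4 and 78.0 in large follicle libraries. The sizes did not overlap, and the log2 ratio was 2.98 higher in large than in small follicles (exact permutation test of the trend with size over 1680 arrangements, two-sided, p = 0.00119, the lowest value these arrangements can give, and 0.00357 after Benjamini-Hochberg adjustment over the 3 ratios tested).

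miR-25 had 120, 71.6 and 104 counts for every 100 of miR-92a in small, 84.2, 57.0 and 80.6 in medium, and 54.8, 43.6 and 46.1 in large follicle libraries. Its log2 ratio to miR-92a fell by 1.00 from small to large follicles (exact permutation test, two-sided, p = 0.00595, adjusted p = 0.00893). All 3 large libraries were below all 6 others. For every 100 counts of miR-92a, miR-32 had 2.58, 2.06 and 0.926 counts in small, 1.02, 1.44 and 0.42 in medium, and 0.408, 0.481 and 0.258 in large follicle libraries. Its log2 ratio fell by 2.20 (exact permutation test, two-sided, p = 0.00952, adjusted p = 0.00952), and small and medium libraries overlapped, as did medium and large libraries.

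miR-92b was also set beside miR-25, which is of equal length. This pair was chosen after its values were seen and was not tested. miR-92b had 5.74, 6.74 and 8.29 counts for every 100 of miR-25 in small, 36.2, 38.7 and 35.9 in medium, and 78.9, 94.9 and 169 in large follicle libraries. miR-92b exceeded miR-25 in 1 of the 9 libraries, large replicate 12.

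**Figure D2:**
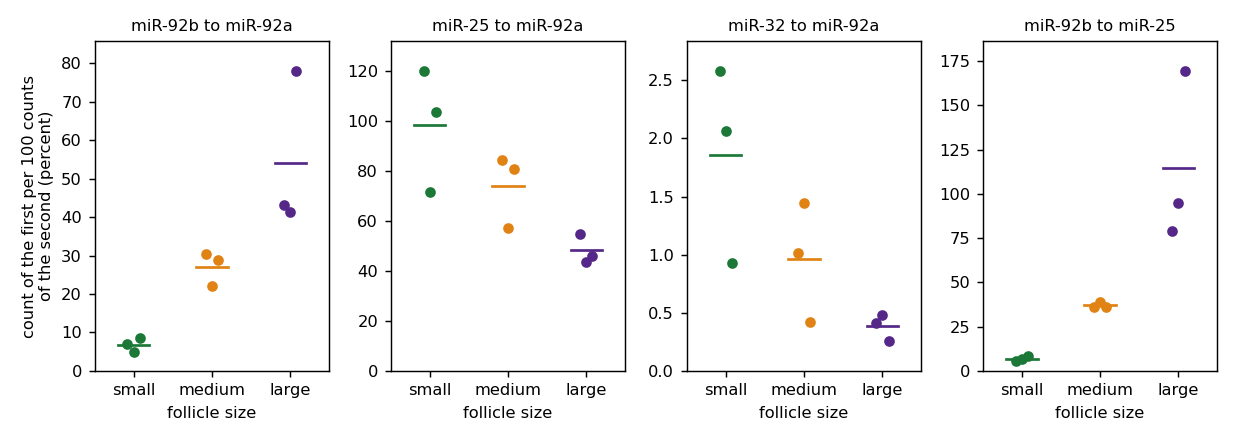
Count of the first-named miRNA for every 100 counts of the second within each library (linear axes from 0), with miR-92a as the mean of its 2 loci. Points are libraries and bars are means of 3. The share of miR-92b against miR-92a rises from at most 8.59 in small to at least 41.4 in large follicles, and those of miR-25 and miR-32 have their lowest means in large follicles.

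As a share of the family's own counts, miR-92b made up 2.19% ± 0.513, 8.95% ± 0.954 and 17.7% ± 5.51 from small through medium to large follicles (SD, n = 3). miR-25 made up 31.7% ± 5.47, 24.3% ± 3.48 and 15.9% ± 2.16, and miR-32 made up 0.606% ± 0.27, 0.324% ± 0.19 and 0.128% ± 0.0451 in the same order (SD, n = 3). The shares of the 2 miR-92a loci differed between sizes by less than their spread, with 34.2% ± 3.62, 35.8% ± 2.72 and 36.6% ± 3.38 on chromosome 12 and 31.2% ± 2.14, 30.6% ± 1.58 and 29.7% ± 0.976 on chromosome X (SD, n = 3).

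All 5 loci together held 8.18% ± 2.99, 7.94% ± 2.46 and 11.9% ± 3.77 of the known and homologous miRNA counts of small, medium and large follicles (SD, n = 3), and the libraries of the 3 sizes overlapped. A read of miR-92a could also have been counted at both of its loci, and with the mean of these loci counted once the shares were 5.70%, 5.48% and 8.35%. Of all deposited counts they held 1.87% ± 1.15, 0.565% ± 0.545 and 0.402% ± 0.443 (SD, n = 3). Within each size, the highest share on either scale was in small replicate 4, medium replicate 8 and large replicate 12.

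Relative to all deposited counts, the picture of the family changed, since the log2 fold change of a locus in large versus small follicles shifted between the scalings by a median of -2.89 over the 249 loci. miR-92b had 365, 135 and 843 CPM of all deposited counts in small, 275, 171 and 1114 in medium, and 206, 219 and 2197 in large follicle libraries. These sizes overlapped, and the quasi-likelihood test gave it a log2 fold change of 0.96 for large over small follicles (SE 1.00, FDR = 0.366). It was -0.67 with TMM over all deposited loci (quasi-likelihood FDR = 0.558). Over all alternatives outside the left-out libraries, which mix both kinds of scaling, the FDR of miR-92b ranged from 1.11e-09 to 0.866. The value of 0.96 was nevertheless the third highest among the 249 loci on this scale, of which 76.7% were called lower and 0.402% higher.

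The other 4 loci were called lower on the scale of all deposited counts, as were 76.7% of the 249 loci. miR-32 had 137, 57.7 and 90.8 CPM of all deposited counts in small and 1.95, 2.54 and 7.27 in large follicle libraries, and its log2 fold change was -4.59 (SE 0.86, quasi-likelihood FDR = 0.000685). miR-25 had 6368, 2005 and 10164 CPM of all deposited counts in small and 262, 230 and 1298 in large follicle libraries, with a log2 fold change of -3.37 (SE 0.97, quasi-likelihood FDR = 0.00684). Large and small libraries did not overlap for either, and large were below small libraries without overlap at 77.5% of the 249 loci. miR-92a gave log2 fold changes of -2.17 at chromosome 12 (SE 0.88, quasi-likelihood FDR = 0.0357) and -2.29 at chromosome X (SE 0.91, quasi-likelihood FDR = 0.0329), and at both loci large replicate 12 overlapped the small libraries. Over the alternatives with every library kept, the FDR ranged from 0.000257 to 0.00934 for miR-32, from 0.000792 to 0.431 for miR-25, from 0.00516 to 0.268 for miR-92a on chromosome 12 and from 0.00421 to 0.447 on chromosome X. These alternatives mix scaling to the known and homologous miRNA with scaling to all deposited loci. Both miR-92a loci had positive log2 fold changes with the former, so their ranges do not measure the downward call alone. In the test of all 85601 deposited loci past a filter on low counts, miR-25 and miR-32 were called lower for large follicles (quasi-likelihood FDR = 0.0417 and 0.00165) and neither miR-92a locus was called (FDR = 0.0861 and 0.0875).

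**Figure D3:**
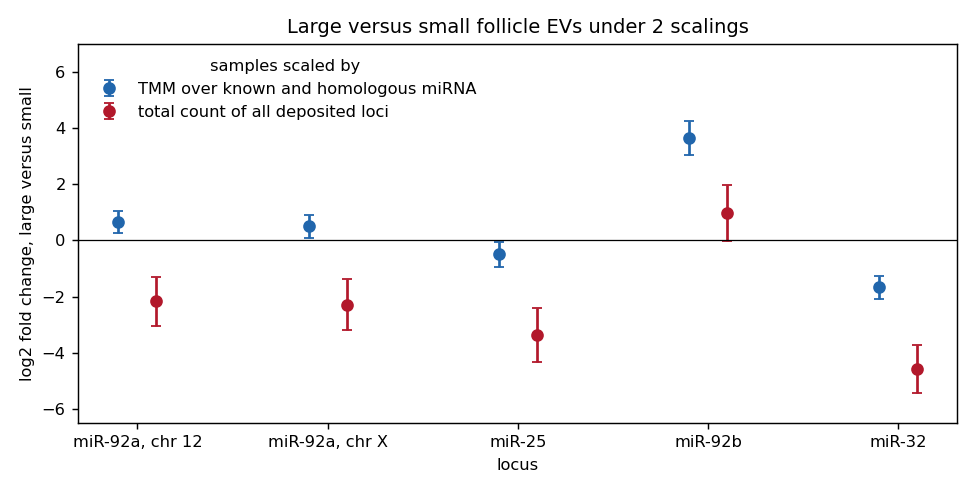
Log2 fold change in large versus small follicle EVs of the 5 loci, with SE from the quasi-likelihood fit, when libraries are scaled by TMM over known and homologous miRNA or by the sum over every deposited locus. Every locus is lower on the second scale, and miR-92b is the highest of the 5 on both (3.65 and 0.96).

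The polycistronic clusters that hold miR-92a and miR-25 were compared with these members, since the miRNAs of a cluster are known to be cut from 1 primary transcript. The list of known and homologous miRNA has 11 further loci within 10000 bases of a member, 6 on chromosome 12, 1 on chromosome X and 4 on chromosome 25, and none near miR-92b or miR-32. All lie on the strand of their member. In large versus small follicles, 7 of the 11 were lower, 0 were higher and 4 did not pass (42.2% of all 249 loci were called), and their median log2 fold change was -1.80. The list holds loci with a mean count of at least 100 in 1 size or more. miR-17-3p, miR-18a and chi-miR-25-5p reached this only in small follicles, which favours a lower count in large follicles. Of these, miR-17-3p is among the loci called lower, so the tally was not free of this rule. In medium versus small follicles, 0 of the 11 passed the quasi-likelihood test, as for all 249 loci. In large versus medium follicles, where 10.4% were called, miR-17-5p and miR-106b were lower (log2 fold change -1.46 and -1.52, FDR = 0.0415 and 0.0478) and 9 did not pass. Both calls ended without large replicate 11, medium replicate 5 or medium replicate 6, where 0 of the 249 loci were called, and on the scale of all deposited counts (FDR = 0.0518 for both). They also ended in the fit of the 2 groups alone, which called 0 loci lower, and with TMM over all deposited loci, which called 0.

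On chromosome 12, 5 of the 6 neighbours of miR-92a fell relative to other miRNAs, with quasi-likelihood log2 fold changes from -3.86 for miR-19a (FDR = 0.000598) to -1.44 for miR-17-5p (FDR = 0.00735). miR-19a and miR-19b had the lowest values, and miR-19b had -2.66 on chromosome 12 (FDR = 0.001) and -2.61 on chromosome X (FDR = 0.00132). miR-20a and miR-17-3p had -1.80 and -2.14 (FDR = 0.00831 and 0.0377), while miR-18a had -1.60 and did not pass (FDR = 0.0692). The normalized count of miR-19b on chromosome 12 was 1689, 874 and 1154 in small, 350.2, 362 and 209 in medium, and 189.6, 291 and 120.3 in large follicle libraries. All 6 neighbours had lower normalized counts in every large than in every small follicle library, whereas those of miR-92a overlapped. Normalized counts did not overlap between these sizes, in either direction, at 53.0% of the 249 loci. The 6 are not separate observations, since miR-17-5p and miR-17-3p share a hairpin and the reads of miR-19b are uncertain between its loci. miR-17-3p and miR-18a also reached the minimum mean count of the list only in small follicles. miR-18a had a count of 0 in large replicate 11, which allows up to 0.00205% of the known and homologous miRNA counts there.

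Within a library, chromosome 12 miR-19b had 4.57 ± 1.95, 1.27 ± 0.607 and 0.507 ± 0.271 counts for every 100 of miR-92a from small through medium to large follicles (SD, n = 3). For every 100 counts of miR-92a, miR-17-5p had 4.97 ± 1.88, 5.30 ± 2.61 and 1.14 ± 0.226 in the same order (SD, n = 3). Both ratios had their lowest mean in large follicles on counts of the same library, and neither ratio was tested.

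On chromosome X, 1 other locus within 10000 bases of miR-92a was analysed, and it carries the name miR-19b, as does a chromosome 12 locus. The miR-19b loci held 10432 counts on chromosome 12 and 10680 on chromosome X, and their reads are uncertain in the same way. RefSeq places MIR363, MIR20B, MIR18B and MIR106A beside MIR92A-2 on this chromosome, and these were not analysed here. How much of the chromosome X counts came from this cluster cannot be told apart from the chromosome 12 copies.

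On chromosome 25, miR-106b fell with a log2 fold change of -2.06 in large versus small follicles (quasi-likelihood FDR = 0.00461). miR-93 had -0.67 (FDR = 0.0669), chi-miR-106b-3p (a goat name given by homology) had 0.29 (FDR = 0.508) and chi-miR-25-5p, which comes from the other arm of the miR-25 hairpin, had 1.26 (FDR = 0.0705), all in the quasi-likelihood test. chi-miR-25-5p was low, with 47.8 ± 11.3 normalized counts in small and 116 ± 66.4 in large follicle EVs (SD, n = 3). For every 100 counts of miR-25 it had 0.153, 0.396 and 0.103 in small and 0.471, 1.15 and 0.336 in large follicle libraries, which overlapped.

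**Figure D4:**
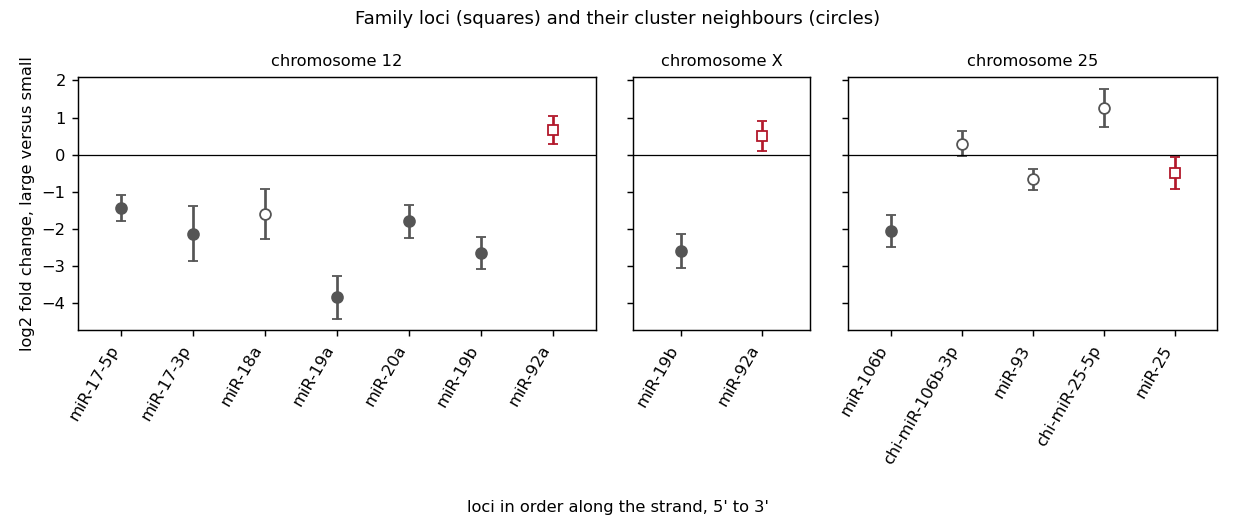
Log2 fold change in large versus small follicle EVs, with SE, of family loci (squares) and the miRNA loci within 10000 bases (circles), in 5′ to 3′ order in each cluster. Filled symbols had an FDR under 0.05. On chromosome 12 all circles lie from -3.86 to -1.44 and the miR-92a square at 0.66.

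On the scale of all deposited counts, 10 of the 11 neighbours were called lower in large versus small follicles, against 76.7% of the 249 loci. Those called include miR-17-3p and miR-18a, which reached the minimum mean count of the list only in small follicles. The median log2 fold change of the 11 neighbours there was -4.76, beside -2.29 for the family and -3.06 for all 249 loci.

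Blood cells could add miRNA to follicular fluid, and miR-92a is also abundant in red blood cells. Of a short list of blood miRNAs, the red cell miRNAs miR-451 and miR-486 and the white cell miRNAs miR-142-5p and miR-150 were among the 249 loci, and miR-144 and miR-223 were not analysed here. The summed normalized count of miR-451 and miR-486 was 239 to 2323 in small, 1269 to 2706 in medium and 6720 to 13226 in large follicle libraries. That of miR-142-5p and miR-150 was 169 to 251, 226 to 265 and 424 to 2273 in the same order. In large versus small follicles, miR-486, miR-142-5p and miR-150 rose, with log2 fold changes of 3.29, 2.25 and 5.68 (quasi-likelihood FDR = 0.00548, 0.00374 and 0.00132), and miR-451 had 2.04 (FDR = 0.0623). In the same comparison, 17.7% of the 249 loci were called higher. The 3 blood miRNAs that rose moved in the same direction as miR-92b, and their part in its rise was not tested. miR-150 reached the minimum mean count of 100 for the list only in large follicles, where replicate 12 stood highest. The rise of miR-150 on either scale thus rests on the size through which it entered the list. On the scale of all deposited counts, miR-486 had 61.9 to 281 CPM in small and 118 to 611 in large follicle libraries, which overlapped as those of miR-92b did. On that scale miR-150 was called higher in large versus small follicles (log2 fold change 3.14, quasi-likelihood FDR = 0.0392), with 1.84, 0.895 and 2.46 CPM in small and 1.03, 4.98 and 40.1 CPM in large follicle libraries, which overlapped. The log2 fold changes of miR-451 and miR-142-5p were -0.33 and -0.58 (FDR = 0.746 and 0.546). The gonad miRNA miR-202 did not move relative to other miRNAs at a level that passed, with log2 fold changes of -0.08 and 0.08 at its loci (FDR = 0.916 for both). On the scale of all deposited counts both loci were called lower (log2 fold changes -3.02 and -2.38, quasi-likelihood FDR = 0.00873 and 0.0341), as were 76.7% of the 249 loci.

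For each member, the 3 loci outside the family with the most similar normalized counts were named by Pearson correlation of log2 values over the 9 libraries, which share the size groups and the scaling. The closest to miR-92b were chi-miR-28-3p (r = 0.98), chi-let-7d-3p (r = 0.97) and miR-1343-3p (r = 0.97). miR-32 was closest to miR-16a (r = 0.94) and to the miR-19b loci on chromosomes 12 and X (r = 0.92 for both). The chromosome 12 locus of miR-92a was closest to miR-99b, miR-100 and miR-132 (r = 0.95, 0.92 and 0.91), and the chromosome X locus to miR-99b, miR-361 and miR-100 (r = 0.96, 0.91 and 0.89). For miR-25 the closest were miR-193b, miR-202 and miR-143 (r = 0.92, 0.89 and 0.85). Within the family, the miR-92a loci had r = 0.98 with each other, miR-92b had r = -0.84 with miR-32 and miR-25 had r = 0.03 with miR-92b.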

How the data were processed

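After adapter trimming, the authors aligned reads to UMD3.1 with BWA 0.7.5a and called loci on the merged alignments of the 9 samples. The deposited values are raw read counts per locus, not normalized. The treatment of multi-mapping reads is not given in the sources used here. Names of loci came from the paper's list of known and homologous miRNA, matched by locus identifier. The authors kept loci with a mean count of at least 100 in 1 size or more. Names that begin with chi are those of goat homologues. Sequences of the miRNAs are not shown here.

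Groups were the follicle sizes of the labels. Counts of the 249 loci were scaled by TMM to CPM in edgeR 4.0.16 (limma 3.58.1, R 4.3.3). Pairs of sizes were compared in 1 quasi-likelihood fit of the 9 samples, and p-values were adjusted over the 249 loci by the Benjamini-Hochberg method (FDR under 0.05). A standard error (SE) is the log2 fold change divided by the root of the F statistic. The fit was repeated with the summed counts over every deposited locus as library sizes. Within-library ratios were tested for a trend with size by exact permutation (Python 3.11.15, numpy 2.4.6). As alternatives, each library was left out in turn, the threshold was set at 0.1, pairs of sizes were fitted alone, low counts were filtered, other scalings were used, and DESeq2 1.42.0 and edgeR's exact test were run. The filter on low counts removed none of the 249 loci. The fit was tested on simulated data.

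The family, its neighbours (loci of the list within 10000 bases), the most similar loci (3 for each member) and the blood and gonad miRNAs were chosen with earlier results of these data known. A count of 3, the smallest the depth was taken to show, was 8.8e-05% to 0.00205% of a library's counts on known and homologous miRNA. This limit covers counting error only. The labels do not say which pools came from the same collection, so p-values measure the spread between pools with collections included.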

Additional observations from a re-analysis of the deposited data

How the results depend on the processing

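No paired analysis was possible because the labels do not say which pools came from the same collection and the sizes share no replicate numbers, although each collection gave fluid of every size. Of the members called in large versus small follicles, miR-32 kept its direction and its call in all 10 alternatives and with each of the 9 libraries left out (log2 fold change -1.84 to -1.40), and miR-92b kept both with each library left out (2.81 to 4.28) and in 7 of 10 alternatives. Of these alternatives, the filter on low counts kept all 249 loci and so repeats the main fit. Leaving out a medium library barely moves this comparison (-1.66 for miR-32 and 3.65 for miR-92b). The 3 alternatives that ended the call of miR-92b all scale libraries by more than the known and homologous miRNA. They were the total over deposited loci (0.96), TMM over deposited loci (-0.67) and 1 fit of all deposited loci (-0.69). The trends of the 3 ratios held in every alternative, with ranges over left-out libraries of 2.68 to 3.17 for miR-92b, -1.22 to -0.85 for miR-25 and -2.64 to -1.90 for miR-32 to miR-92a on the log2 scale. Depth limits miR-32 most, with 19 counts in 1 library.

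The same 3 scalings, in the order total, TMM and 1 fit, gave the following log2 fold changes. In large versus small follicles they were -2.17, -3.82 and -3.84 for miR-92a on chromosome 12, -2.29, -3.93 and -3.95 for chromosome X, and -3.37, -5.04 and -5.05 for miR-25. In large versus medium follicles they were -0.52, -1.22 and -1.22 for chromosome 12, -0.54, -1.24 and -1.24 for chromosome X, and -1.27, -2.0 and -1.99 for miR-25. In medium versus small follicles miR-32 passed under all 3 (-2.96, -4.14 and -4.17), miR-25 passed under TMM over deposited loci (-3.04), and miR-92b reversed under the last 2 (-0.74 and -0.76).

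Values near 0 changed sign. In large versus medium follicles miR-25 had -0.0046 in DESeq2 and with DESeq2's size factors, -0.056 in the fit of the 2 groups and -0.089 without TMM, and -0.28 to 0.43 with a library left out. In medium versus small follicles miR-92a on chromosome 12 had 0.014 in DESeq2 and with its size factors, 0.054 in the fit of the 2 groups and 0.028 without TMM. With a library left out, the chromosome 12 value ranged from -0.36 to 0.29 and the chromosome X value from -0.48 to 0.23. miR-92b passed in DESeq2 and the exact test for medium versus small (1.91 and 1.83) and large versus medium follicles (1.75 and 1.81). With a library left out it ranged from 1.46 to 2.49 and from 0.98 to 2.18, and passed in 1 of 9 fits each, without large replicate 12 and without large replicate 10.

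Of the 249 loci, large versus small follicles gave 63 calls without small replicate 1, 69 without large replicate 11 and at most 105 with another library left out, and 192 and 232 with the total and TMM over deposited loci. Medium versus small follicles gave 28 calls in DESeq2, 16 in the exact test, 16 at an FDR under 0.1, 59 and 109 with those scalings, and 0 to 13 with a library left out (13 without large replicate 12). Large versus medium follicles gave 63, 52 and 65 calls in DESeq2, the exact test and at an FDR under 0.1, 2 in the fit of the 2 groups, 0 with both scalings, and 0 to 24 with a library left out. It gave 0 without large replicate 11, medium replicate 5 or medium replicate 6, 5 without small replicate 1 and 15 without small replicate 2. Without the 10 loci of highest count outside the family, its share of known and homologous miRNA counts was 15.1%, 14.8% and 19.9% for small, medium and large follicles. The share of all deposited counts was 0.147% in place of 0.402% without large replicate 12 and 0.252% in place of 0.565% without medium replicate 8. The cause of these changes was not tested.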

Other observations

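A few deposited loci near the members are outside the list of known and homologous miRNA, and they were chosen here by their position alone. On chromosome 8, a locus spanning 100305163–100305183 on the strand of miR-32 and 20 bases from it held 162 counts over the 9 libraries, beside 3993 on miR-32. Its count was 79, 27 and 13 in small, 3, 10 and 12 in medium, and 13, 0 and 5 in large follicle libraries. As a share of the miR-32 count this was 1.41% to 5.23% for small, 2.70% to 7.63% for medium and 0% to 68.4% for large follicles, where the highest share rests on 13 counts beside 19.

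On chromosome 12, a locus spanning 66227265–66227287, 14 bases from miR-92a and on its strand, held 74 counts, against 321784 on miR-92a. Its count was 20, 6 and 18 in small, 6, 3 and 10 in medium, and 0, 2 and 9 in large follicle libraries. This locus lies within the miR-92a hairpin that the paper shows. A second locus of the miR-92a cluster, at 66227048–66227070, had 47, 21 and 20 counts in small, 0, 5 and 1 in medium, and 0 in each of the large follicle libraries. It lies within the paper's miR-20a hairpin. A further locus of the cluster, at 66226743–66226765, had 14, 2 and 23 counts in small, 1, 6 and 20 in medium, and 0, 5 and 17 in large follicle libraries. On chromosome 25, a locus spanning 36892296–36892320 upstream of miR-25 held 307 counts, with 82, 40 and 96 in small, 10, 10 and 43 in medium, and 6, 3 and 17 in large follicle libraries. On the opposite strand, a locus at 36895709–36895742 had 5, 1 and 5 counts in small, 15, 17 and 5 in medium, and 15, 19 and 16 in large follicle libraries. At these counts differences between sizes were not tested.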
